A study of Mus musculus with 38 samples.

Results

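The genes described here are those of the aminoacyl-tRNA synthetases (aaRSs) in mouse oocytes and early embryos. They were chosen by name, as the protein-coding genes of the deposited table whose symbol is a single amino-acid letter followed by ars, with or without a closing digit, together with Farsa, Farsb, Eprs and Tarsl2. The rule found 37 of the 23125 genes in the table. Of these, 21 code for cytosolic enzymes and 16, whose names end in 2, for mitochondrial ones. Tarsl2, a paralogue of the threonyl enzyme gene, was kept with the cytosolic group.

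An aaRS joins an amino acid to its tRNA, and the charged tRNA is what the ribosome uses to read a codon. Mouse cells carry separate nuclear genes for most cytosolic and mitochondrial enzymes, while Gars and Kars each serve both compartments. The mitochondrial enzymes charge tRNAs for the few proteins of the respiratory chain that mitochondria make themselves. Fully grown oocytes do not transcribe, so the mRNAs of an MII oocyte were laid down earlier. What changes there is their stability, their poly(A) tails and their loading onto ribosomes. The two-cell embryo is where the mouse genome is switched on in earnest.

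Scarce sample polysome profiling was followed by RNA-seq in wild-type ICR mice at 6 stages. The meiotic stages were GV oocytes in prophase and MII oocytes after 12 h in culture. GV oocytes were isolated in medium with IBMX, which prevents spontaneous resumption of meiosis, and those for MII were then cultured without it. The embryonic stages were the zygote, taken 16 h after mating, the two-cell embryo, and the M-phase of each, called zygote M and two-cell M. Of 10 sucrose gradient fractions, the 5 light ones were pooled as the non-polysome (NP) library and the 5 heavy ones as the polysome (P) library, with 3 biological replicates per stage and fraction and 36 libraries in all. Females were at least 6 weeks old and had received PMSG, and those mated to males of the same strain also hCG. All lysates contained cycloheximide, which holds ribosomes on the mRNA. Zygote M and two-cell M embryos had been held in 10 µM nocodazole, which the interphase embryos had not, so M-phase and the drug cannot be told apart in those comparisons. Interphase zygotes were collected when isolated, and later embryos after culture in KSOM medium. Zygote M against zygote thus also differs in time and culture, which cannot be told apart from M-phase either. MII oocytes had not been given nocodazole and reached M-phase in culture.

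Values are FPKM, fragment counts scaled by exon length and by library depth. They are relative within a library and per gene length, so they allow levels to be compared between genes. A higher value in polysomes is a higher relative level in that library and not a rate of translation. The FPKM of all genes summed to between 88982 and 247361 per library, so values are not shares of a common total. In pools of this kind, fewer cells with an mRNA and less of it per cell cannot be told apart. Each gene was tested in 1 limma fit of log2 FPKM over 12 group means, with Benjamini-Hochberg adjustment over the 7967 genes with a geometric mean of 0.1 FPKM or more over the libraries. A call needed an adjusted p under 0.05 and a fold change beyond 2. Of the aaRS genes 25 were tested, 18 cytosolic and 7 mitochondrial. The 12 below the minimum were Yars, Lars and Tarsl2 and 9 mitochondrial genes, among them Mars2, Tars2, Ears2 and Nars2.

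The steps between low values put the libraries at about 11100000 to 24800000 fragments in polysomes and 8490000 to 26700000 in the NP fraction. A single fragment on 3000 bases of exon was then worth 0.013 to 0.03 FPKM in polysomes, close to 0.01, the value at which the table lists a gene without fragments. Correlation between replicates, taken across genes, had a group median between 0.596 for two-cell NP libraries and 0.956 for zygote polysome libraries. Oocyte markers (12 genes such as Gdf9, Zp3 and Bmp15) summed to 4320 to 4610 FPKM in GV polysomes and to 92 to 251 in two-cell M polysomes. Of 10 cumulus and granulosa markers, Foxl2, Amh, Has2 and Tnfaip6 were at 0.01 in all MII polysome libraries, and the 10 summed to 0.892 to 4.86 FPKM there against 0.22 to 0.469 in GV. In NP libraries the 10 summed to 0.168 to 24 FPKM in MII, 0.115 to 0.337 in GV and 0.102 to 35.1 in two-cell. Globin genes were at 0.01 in every GV and MII polysome library and summed to 34.3 to 83.7 FPKM in two-cell polysomes. The part of these markers in the results below was not tested.

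Sequence features known from work on oocytes and on amino acid supply were looked up first. The cytoplasmic polyadenylation element (CPE, TTTTAT or TTTTAAT) is bound by CPEB, a regulator of the poly(A) tail in maturing oocytes, and usually lies near the AATAAA or ATTAAA signal. Annotated mRNA ends (GENCODE, GRCm38) of at least 100 bases beyond the stop codon were available for 33 of the 37 genes. A CPE lay in the last 100 bases of 7 of them (21.2%), against 19.5% of 5911 tested genes with such an end. Among the tested aaRS genes it was 4 of 22 (18.2%). By compartment the 7 of 33 were 6 of 18 cytosolic genes (33.3%) and 1 of 15 mitochondrial ones (6.67%). The windows of 30 bases below are those of the 2 most abundant cytosolic mRNAs, of Kars as an example with a CPE, and of the mitochondrial mRNAs to which the results return. They are written as mRNA, 5′ to 3′, with the CPE and the poly(A) signal in capitals.
Farsa, chr8:84869209-84869238, plus strand: tgTTTTAATAAAgtgggcacattccctcat
Qars, chr9:108515906-108515935, plus strand: actccgtttcAATAAAgaataactaaatcc
Kars, chr8:111993454-111993483, minus strand: ctTTTTATtcctcgttaccaAATAAAtcat
Lars2, chr9:123462635-123462664, plus strand: accattgaattAATAAAtgttgtgaaccat
Pars2, chr4:106655248-106655277, plus strand: ctgttgattgAATAAAgtcaagcctttggg
Sars2, chr7:28753824-28753853, plus strand: gaatggccacAATAAAtggtcgtgagaaca
In Farsa the CPE and the signal overlap. The end of Qars is 95 bases long, too short for the count above, and held a signal but no CPE. Lars2, Pars2 and Sars2 likewise showed the signal alone. A match is a description of these letters and not a site shown to act.

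The other feature was the binding motif of ATF4, the transcription factor of the amino acid response, which is known to drive synthetase genes when charged tRNA runs short. The letters searched were TGATGNAA, or TTNCATCA on the other strand, in RefSeq promoters of GRCm38.p6 that run from 250 bases before to 50 bases after the start of a gene. Promoters of 28 genes could be matched, 14 of each compartment. The motif was found in 5 of 14 cytosolic genes (35.7%), in 0 of 14 mitochondrial genes and in 4.51% of all 27025 genes. A match in each of the 5 is printed along the gene, in capitals, to show the genes behind this count.
Yars, chr4:129189895-129189924, plus strand: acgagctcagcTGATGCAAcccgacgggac
Gars, chr6:55037960-55037989, plus strand: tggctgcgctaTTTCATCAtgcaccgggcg
Aars, chr8:111033840-111033869, plus strand: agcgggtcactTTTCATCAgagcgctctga
Iars, chr13:49682126-49682155, plus strand: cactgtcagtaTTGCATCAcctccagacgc
Tars, chr15:11399655-11399684, minus strand: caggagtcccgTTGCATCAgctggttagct
Of these genes Yars was not tested, being at 0.01 FPKM in 19 of 36 libraries. In MII polysomes the other 4 had 5.09 ± 0.62 FPKM (Aars), 1.24 ± 0.655 (Iars), 1.18 ± 0.313 (Gars) and 0.806 ± 0.588 (Tars; SD, n = 3). In zygote M polysomes they had 0.899 ± 0.457, 0.0533 ± 0.0372, 0.708 ± 0.389 and 0.0205 ± 0.00744 FPKM in the same order, and the groups overlapped for Gars alone. All MII libraries lay above all zygote M libraries for 3 of these 4, for 18 of the 25 tested aaRS genes and for 36.4% of all tested genes.

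Polysomal aaRS mRNA was dominated by few genes, and which ones differed with the stage. Over the 18 polysome libraries the mean was 23.3 FPKM for Qars, the glutaminyl enzyme gene, and 13.1 FPKM for Farsa, which codes for the catalytic subunit of the phenylalanyl enzyme. These means are carried by MII, where Qars had 73.2 ± 22.4 and Farsa 47.4 ± 7.13 FPKM (SD, n = 3). In zygotes Sars, at 16.8 ± 1.15 FPKM, was above Farsa, at 11.9 ± 0.458, and from zygote M on the mean of Lars2 was above that of Qars. Over all 18 libraries Sars (seryl) followed at 5.95 FPKM, Wars (tryptophanyl) at 2.75, Aars (alanyl) at 2.54 and Kars (lysyl) at 2.43. The remaining cytosolic genes lay between 1.24 FPKM for Hars (histidyl) and 0.0254 for Tarsl2. Farsb, which codes for the other subunit of the phenylalanyl enzyme, had a mean of 0.811 FPKM, far below its partner. Among the mitochondrial genes Lars2 (leucyl) had 11.9 FPKM, Pars2 (prolyl) 3.16, Sars2 (seryl) 1.59 and Vars2 (valyl) 1.001, and the others were below 1, down to 0.0132 for Nars2 (asparaginyl).

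**Figure D1:**
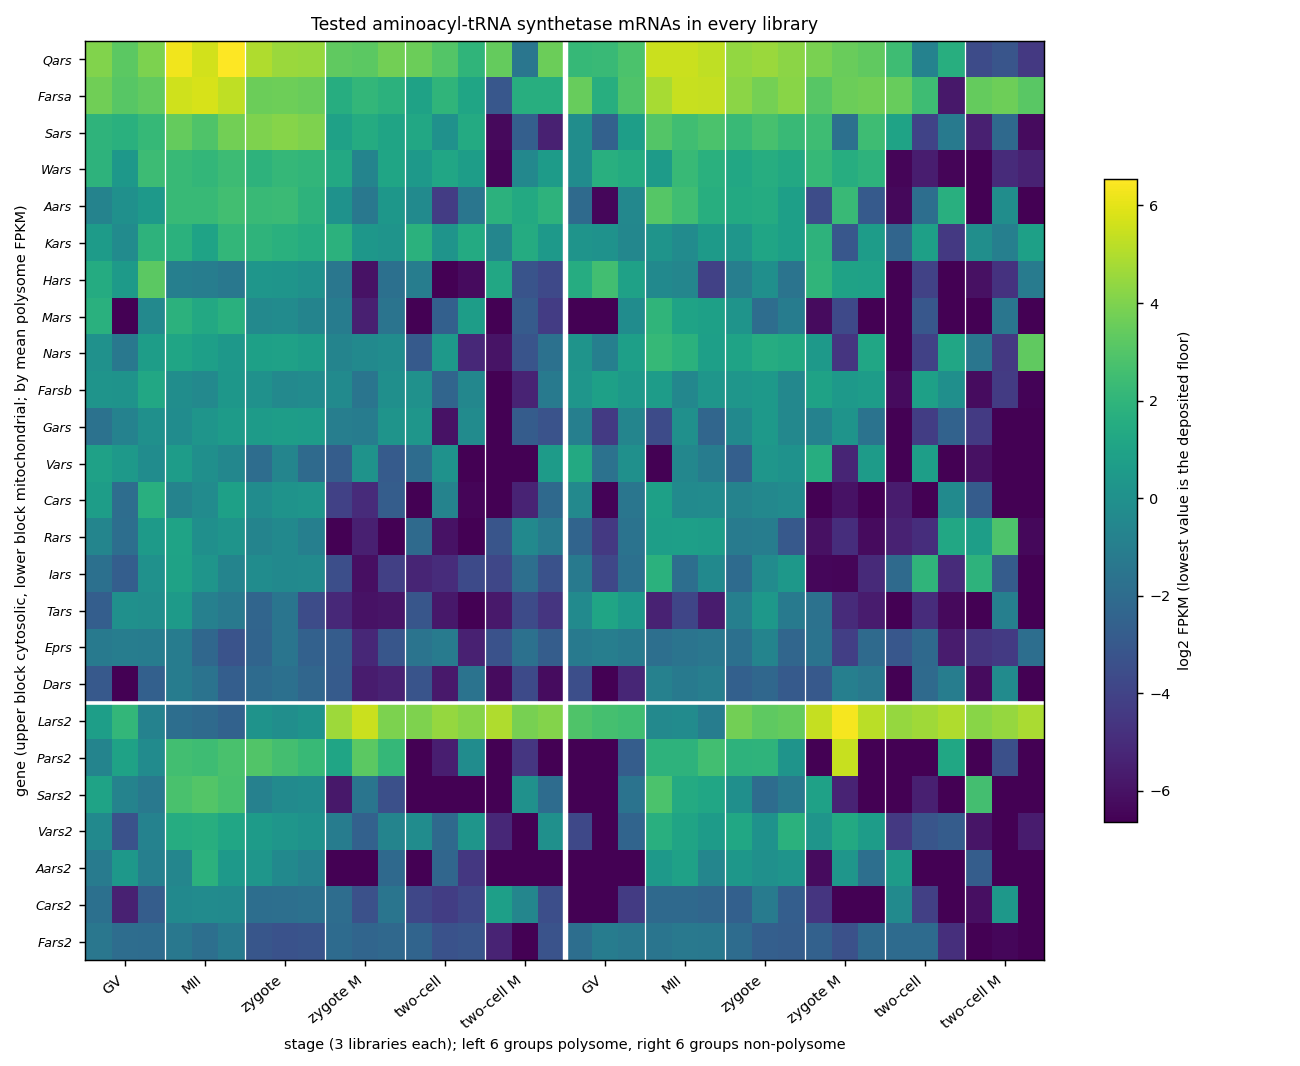
Each column is 1 of the 36 libraries, grouped by fraction and stage, each row is 1 of the 25 tested genes, and colour gives log2 FPKM. Qars and Farsa were brightest in MII, Lars2 was dark in MII and bright from zygote M on, and Sars2 lay at 0.01 FPKM in all 3 two-cell polysome libraries.

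The MII oocyte was the stage of the highest mean in polysomes for 9 of the 21 cytosolic genes (Aars, Dars, Farsa, Iars, Mars, Qars, Rars, Tars and Wars) and for 8 of the 16 mitochondrial genes (Aars2, Ears2, Fars2, Iars2, Rars2, Sars2, Tars2 and Vars2). Among the tested genes these were 13 of 25 aaRS genes, where 23.6% of all tested genes had their highest mean in MII. GV was highest for 6 cytosolic genes (Cars, Eprs, Farsb, Hars, Lars and Vars) and for Nars2. The zygote was highest for Gars, Kars, Nars and Sars and for Pars2 and Yars2. Lars2 was highest in zygote M, and Tarsl2, Yars, Cars2, Mars2 and Wars2 were highest in two-cell M.

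Summed over the 21 cytosolic genes, polysome libraries held 49.9 ± 16.1 FPKM (SD, n = 3) in GV, 158.1 ± 21.9 in MII and 76.7 ± 5.88 in zygotes. The sum was 24.9 ± 2.94 in zygote M, 21.4 ± 4.54 in two-cell embryos and 19.2 ± 6.72 in their M-phase. All MII libraries lay above all others, and the last 3 stages overlapped. Qars and Farsa made up 76.4% ± 0.882 of the sum in MII polysomes against 50.7% ± 9.38 in GV. Without both genes the sum was 25.4 ± 12.3 FPKM in GV, 37.5 ± 6.29 in MII and 38.5 ± 2.99 in zygotes, and these 3 groups overlapped. The 15 mitochondrial genes other than Lars2 summed to 4.55 ± 0.835 FPKM in GV, 21.9 ± 2.57 in MII, 11.4 ± 1.92 in zygotes and 6.61 ± 3.49 in zygote M. At the two-cell stage polysomes held 2.15 ± 1.66 in interphase and, in M-phase, 3.93 ± 0.523 FPKM of these. The sums were not tested, and they follow their most abundant genes.

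**Figure D2:**
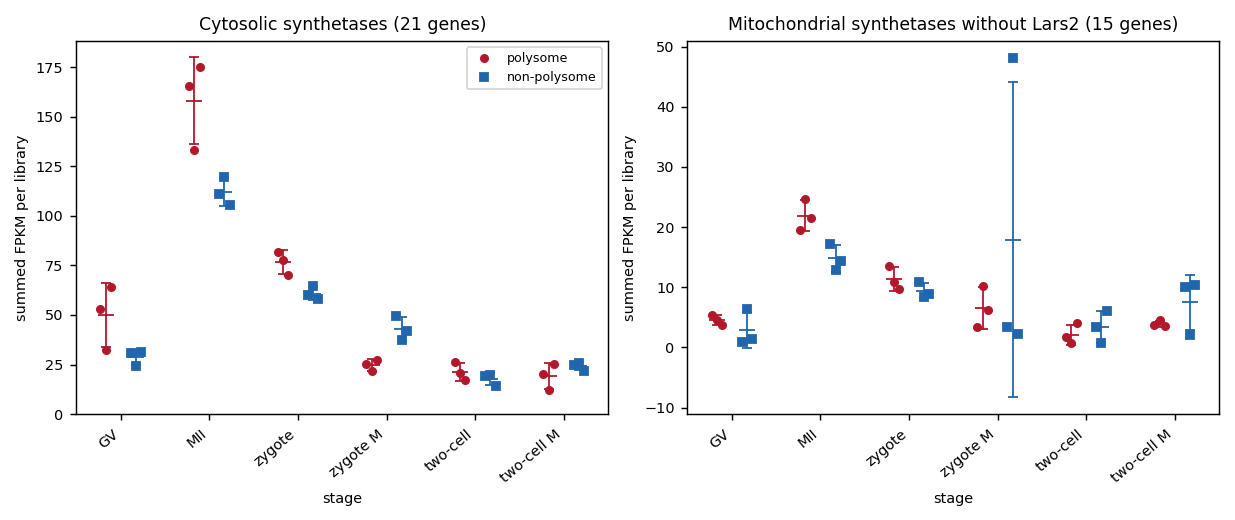
Summed FPKM per library by stage, for the 21 cytosolic genes on the left and the 15 mitochondrial genes other than Lars2 on the right; points are libraries and bars give the mean and SD of 3. Both sums were highest in MII polysomes, and 1 NP library of zygote M stands at 48.2 FPKM on the right, 44.02 of it from Pars2.

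A stage effect in polysomes (moderated F-test of limma) was found for 17 of the 25 tested genes, 11 of 18 cytosolic and 6 of 7 mitochondrial, where 62.9% of all tested genes had one. The genes without it were Aars, Dars, Eprs, Kars, Mars, Nars, Vars and Cars2. Kars had the flattest profile, with an adjusted p of 0.806.

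The first comparison asked how polysomal mRNA differs between the MII oocyte and the GV oocyte from which it matured. Qars (chr9:108507706-108515941, plus strand, GRCm38) had 16.8, 9.49 and 15.2 FPKM in GV polysomes and 76.5, 49.3 and 93.8 in MII polysomes. Farsa (chr8:84856989-84869257, plus strand) had 12.9, 8.73 and 10.4 FPKM in GV and 48.8, 53.8 and 39.7 in MII. The MII libraries of both genes were all above the GV libraries. The log2 difference was 2.40 ± 0.85 (SE) for Qars, with an adjusted p of 0.102, and 2.16 ± 1.34 for Farsa, with an adjusted p of 0.425 (limma), so neither was called. Of the mitochondrial genes, Sars2 (chr7:28741992-28753871, plus strand) had 2.04, 0.599 and 0.397 FPKM in GV and 6.75, 8.25 and 6.65 in MII. Pars2 (chr4:106651069-106655282, plus strand) had 0.625, 1.97 and 0.833 FPKM in GV and 5.86, 5.54 and 6.74 in MII. These groups did not overlap either, and neither gene was called.

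Only Lars2 was called in MII against GV, where 6.11% of all tested genes were. It had 1.66, 4.20 and 0.567 FPKM in GV polysomes and 0.277, 0.238 and 0.180 in MII, a fall of 2.79 ± 0.56 on the log2 scale (limma adjusted p = 0.00157). Its values are taken up again further on. Over the 25 tested genes 19 had a difference above 0, where 54% of all tested genes did, and the median was 1.04, against 0.18 over all tested genes. The median was 0.99 over the cytosolic and 2.58 over the mitochondrial genes.

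These calls depended on which libraries set the spread. When the 6 libraries compared were fitted alone, 9 aaRS genes were called in MII against GV, and so were 27.1% of all tested genes. The 7 that were higher in MII were Qars (adjusted p = 0.0054), Farsa (0.003), Aars, Sars, Pars2, Sars2 and Vars2, and the 2 that were lower were Hars and Lars2. Aars had 5.09 ± 0.62 FPKM in MII against 0.981 ± 0.383 in GV (SD, n = 3), and Hars had 0.462 ± 0.0621 against 4.60 ± 4.31. Leaving the 6 two-cell M libraries out of the fit, a choice made after seeing the data, gave 3 calls, Lars2, Qars and Vars2, where 13.2% of all tested genes were called.

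**Figure D3:**
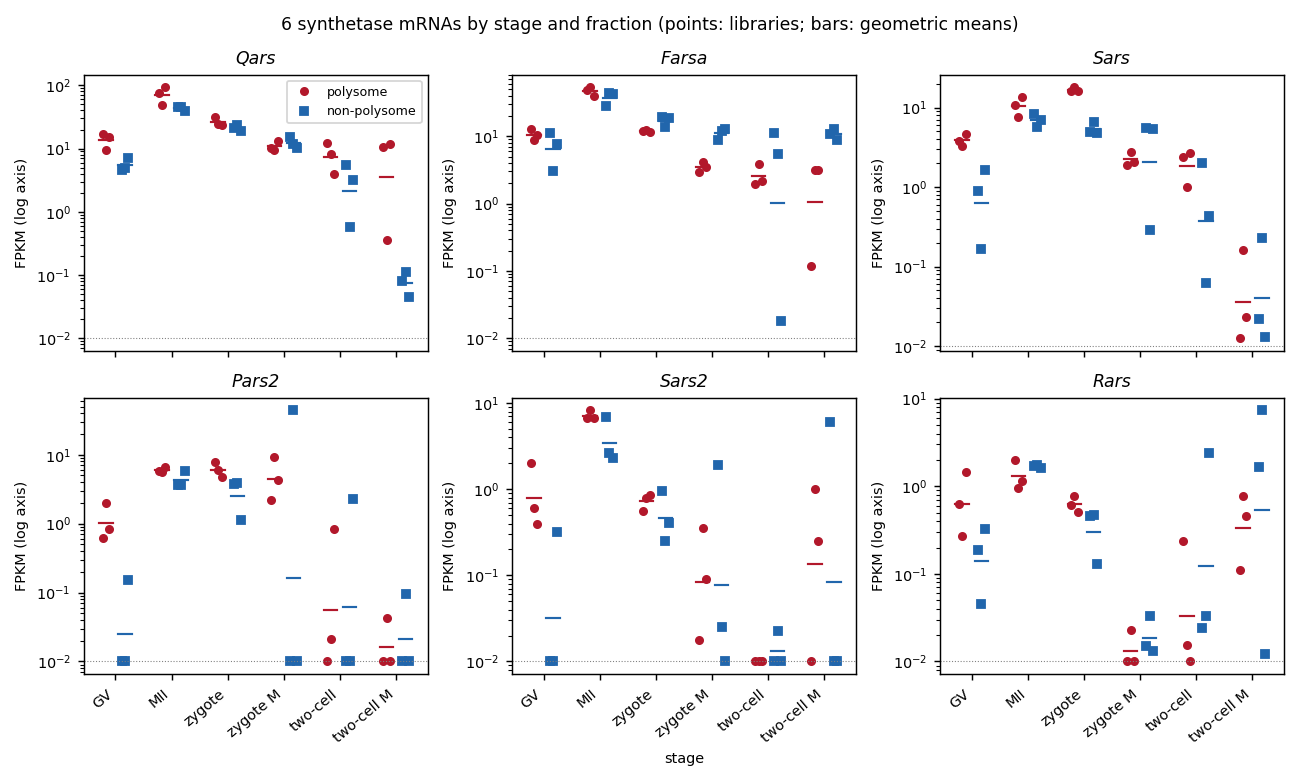
FPKM of 6 genes in each library on a log axis, by stage, with polysome libraries as circles and NP libraries as squares; short bars are geometric means and the dotted line is the 0.01 of the table. Polysomal Qars and Farsa lay highest in MII, and Sars, Pars2, Sars2 and Rars came close to the dotted line in at least 1 embryo stage.

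The second comparison set zygotes in M-phase against interphase zygotes. All 18 cytosolic genes had a difference below 0, with a median of -2.0, whereas 37.7% of all tested genes had one above 0 and their median was -0.43. In this contrast 2 genes were called, where 5.75% of all tested genes were. Rars (arginyl, chr11:35808381-35834506, minus strand) had 0.615, 0.773 and 0.515 FPKM in zygote polysomes and 0.01, 0.0227 and 0.01 in zygote M polysomes. Its fall of 5.57 ± 1.64 on the log2 scale (limma adjusted p = 0.0388) thus ended at the value listed for no fragments in 2 libraries. The call was lost on leaving out any 1 of the 6 libraries, with adjusted p from 0.0759 to 0.135. It was also lost under 4 of 7 other settings of the fit, over which the value ran from -5.99 to -0.69. Lars2 rose, from 1.12, 0.902 and 1.11 FPKM to 24.3, 45.6 and 15.2, by 4.63 ± 0.56 (limma adjusted p = 1.43e-06).

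Sars (chr3:108424865-108445209, minus strand) showed how far a gene could lie apart here without a call. It had 16.2, 18.1 and 16 FPKM in zygotes and 1.91, 2.79 and 2.09 in zygote M, groups that did not overlap. Fitted alone, the 6 libraries gave 13 called genes, 1 higher (Lars2) and 12 lower, where 33.1% of all tested genes were called. The lower ones were 10 cytosolic genes (Aars, Cars, Dars, Farsa, Iars, Nars, Qars, Rars, Sars and Tars) and the mitochondrial Aars2 and Vars2. In that fit Sars fell by 2.91 ± 0.20 (adjusted p = 0.000375), Farsa by 1.76 ± 0.18 (0.0012) and Qars by 1.27 ± 0.20 (0.00473). Farsa had 12.1, 12.3 and 11.4 FPKM in zygotes and 2.95, 4.21 and 3.53 in zygote M.

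The third comparison set two-cell embryos in M-phase against interphase two-cell embryos. The number of all tested genes that were called was large, at 36.3%, and 5 of the 25 aaRS genes were called, all lower. The median of the 25 genes, -1.11, was close to the -1.17 of all tested genes. Sars had 2.39, 1.01 and 2.67 FPKM in two-cell polysomes and 0.0125, 0.160 and 0.0233 in two-cell M, a fall of 5.69 ± 1.17 (limma adjusted p = 0.000411). This call was kept on leaving out each of the 6 libraries (adjusted p from 0.000165 to 0.00483). Farsb (chr1:78417975-78488897, minus strand) had 1.03, 0.196 and 0.683 FPKM in two-cell and 0.01, 0.0247 and 0.416 in two-cell M, a fall of 3.46 ± 1.24 (adjusted p = 0.0298), with overlapping groups. Vars2, Wars and Fars2 (mitochondrial phenylalanyl) fell by 3.24, 2.90 and 2.10, also with overlap. Under quantile normalization these 3 calls and that of Farsb were lost, and Fars2 turned to 0.91. Leaving out 1 of the 6 libraries ended the call of Farsb in 4 fits (limma adjusted p of up to 0.188). Without two-cell M replicate A the value of Wars was -0.73 (limma adjusted p = 0.503), and without two-cell M replicate B that of Vars2 was -1.89 (adjusted p = 0.243) and that of Fars2 -1.33 (adjusted p = 0.191). The count was 3 without two-cell replicate A and 2 without two-cell replicate C or two-cell M replicate A or B. It was 1, Sars, when the 6 libraries were fitted alone, where 20.9% of all tested genes were called. On its annotation Farsb shares 248 exonic bases with Sgpp2 on the opposite strand, Fars2 501 with Nrn1 and Vars2 465 with Gm20483, and the reads were not stranded, so reads from these stretches could not be told apart.

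**Figure D4:**
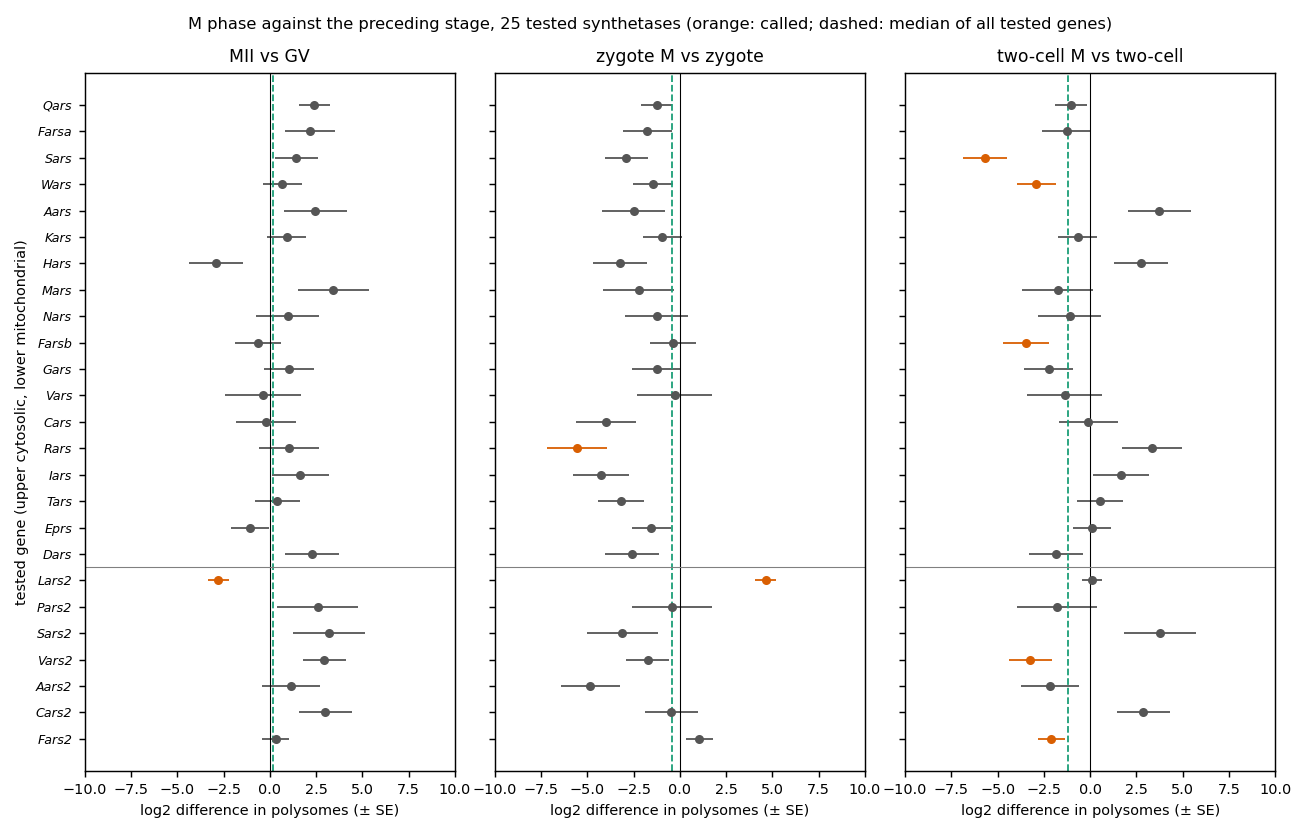
Log2 difference in polysomes with its SE for the 25 tested genes in the 3 M-phase comparisons, cytosolic genes above the line and mitochondrial genes below it; orange points were called and the dashed line is the median of all tested genes. Most points lie right of 0 in MII against GV and left of 0 in zygote M against zygote, and called genes number 1, 2 and 5.

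Changes of the 3 M-phase entries were then compared with each other by contrast in the same fit. MII against GV differed from zygote M against zygote for 1 aaRS gene, Lars2 (9.51% of all tested genes). MII against GV differed from two-cell M against two-cell for 5 genes, Hars, Lars2, Qars, Sars and Vars2 (23.5% of all tested genes). Zygote M against zygote differed from two-cell M against two-cell for 5 genes, Fars2, Hars, Iars, Lars2 and Rars (23.7% of all tested genes). As shares of the 25 genes, all 3 counts were below those of all tested genes.

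Interphase embryos were compared with GV oocytes. In GV against zygote 0 aaRS genes were called, where 5.61% of all tested genes were (limma), and 0 had an unadjusted p under 0.05. In the fit of those 6 libraries 5 were, where 31.0% of all tested genes were called. Of these Aars, Sars and Pars2 were lower in GV, and Vars and Fars2 were higher. Sars had 3.77, 3.28 and 4.62 FPKM in GV, below all zygote libraries, and the difference in that fit was -2.12 ± 0.22 (adjusted p = 0.00243).

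In GV against two-cell 5 aaRS genes were called, where 16.7% of all tested genes were. Hars was higher in GV, with 2.80, 1.48 and 9.51 FPKM against 0.487, 0.01 and 0.0131 in two-cell, by 6.41 ± 1.46 (limma adjusted p = 0.00281). Its gene shares 195 exonic bases with the neighbouring Hars2 on the opposite strand. Cars (cysteinyl) and Tars (threonyl) were higher in GV by 4.79 ± 1.61 and 4.23 ± 1.24, and the groups of Cars overlapped. Sars2 was listed at 0.01 in all 3 two-cell libraries (adjusted p = 0.0238), so no fold is given. Lars2 was lower in GV, by 3.54 ± 0.56 (adjusted p = 5.33e-05), its two-cell values being 16.3, 22.0 and 17.6 FPKM. The count was 3 without GV replicate A, GV replicate C or two-cell replicate B and 2 without two-cell replicate C. Each of the calls of Cars, Tars and Sars2 was lost in 4 of the 6 fits that leave out a library, with limma adjusted p of up to 0.165, 0.0963 and 0.0968. Those of Cars and Tars were also lost when the 6 libraries were fitted alone (adjusted p = 0.104 and 0.0601). With 1 FPKM added the difference was 1.04 for Cars, still called, and 0.64 for Tars, under a 2-fold change, and Sars2 was no longer called (adjusted p = 0.179).

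The meiotic M-phase was compared with both mitotic ones. In MII against zygote M 7 aaRS genes were called, where 12.4% of all tested genes were. Those higher in MII were 6, Rars, Sars2, Aars2 (mitochondrial alanyl), Tars, Iars (isoleucyl) and Qars, where 8.95% of all tested genes were called in this direction. Rars had 2.01, 0.958 and 1.14 FPKM in MII, above its zygote M values of 0.0227 and less, a difference of 6.63 ± 1.64 (limma adjusted p = 0.00608). The size depends on the zygote M libraries at 0.01. Over the other settings of the fit it went down to 1.2, and the call was kept. Sars2 had 0.018, 0.354 and 0.0918 FPKM in zygote M, and its difference was 6.43 ± 1.93 (adjusted p = 0.0252). Qars had 10.1, 9.52 and 13.2 FPKM in zygote M, against 49.3 and more in MII, by 2.71 ± 0.85 (adjusted p = 0.0342). Of the 25 genes 24 were above 0, all but Lars2, with a median of 2.22 against 0.46 over all tested genes, of which 60% were above 0.

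These calls were sensitive to the spread that was used. Leaving out any 1 of the 6 libraries left 3 or 4 of them, and Rars, Tars and Lars2 were called each time. With 1 FPKM added 11 genes were called, 5 of these 7 and 6 others. Tars, then at 0.78 and under a 2-fold change, and Iars were not called with it. In the fit of the 6 libraries alone, 17 aaRS genes were called, 16 higher in MII and Lars2 lower, where 40.6% of all tested genes were. Farsa then had a difference of 3.74 ± 0.23 (adjusted p = 0.000113) and Sars of 2.22 ± 0.30 (adjusted p = 0.00166).

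In MII against two-cell M 17 aaRS genes were called, where 53.0% of all tested genes were, and 16 were higher in MII, where 45.2% were. Pars2 had 0.01, 0.0429 and 0.01 FPKM in two-cell M and a difference of 8.53 ± 2.17 (limma adjusted p = 0.0018), a size that depends on the 2 libraries at 0.01 and was 2.78 with 1 FPKM added. Sars had 10.9, 7.59 and 13.6 FPKM in MII and a difference of 8.17 ± 1.17 (adjusted p = 2.09e-06). Farsa had 0.119, 3.10 and 3.14 FPKM in two-cell M and Qars 10.8, 0.356 and 11.9, so each had a single low library there. The differences were 5.49 ± 1.34 for Farsa (adjusted p = 0.00123) and 4.31 ± 0.85 for Qars (adjusted p = 0.000145). The others that were higher in MII were Mars, Sars2, Vars2, Cars, Gars, Nars, Wars, Farsb, Tars, Dars and Fars2, between 6.24 and 3.58, and Aars2, which was listed at 0.01 in all two-cell M libraries. On leaving out 1 of the 6 libraries the call was lost in 5 fits for Nars, in 4 for Dars, in 3 for Cars and in 1 each for Gars and Sars2. Under quantile normalization 9 of the 17 calls were lost, Dars and Fars2 turned to -1.33 and -0.96 and Tars came to 0.01 (adjusted p = 0.995). Lars2 was lower in MII by 6.44 ± 0.56 (adjusted p = 5.43e-10). The median of the 25 was 4.31, against 2.64 over all tested genes.

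In MII against GV, zygote M against zygote, GV against two-cell and MII against both mitotic M-phases Lars2 was called in the direction opposite to the median of the 25 genes. Its values were therefore examined library by library. Its gene (chr9:123366927-123462666, plus strand) codes for the mitochondrial leucyl enzyme. It held 1.06% ± 0.296 of the mitochondrial aaRS sum in MII polysomes, 8.51% ± 1.52 in zygotes, 80.2% ± 8.59 in zygote M and 89.5% ± 7.64 in two-cell polysomes (SD, n = 3). NP values were 7.51, 6.35 and 5.58 FPKM in GV, 0.751, 0.826 and 0.487 in MII and 13.2, 9.55 and 10.7 in zygotes. They were 41.8, 82.4 and 36.3 in zygote M, 22.3, 25.6 and 31.0 in two-cell and 18.3, 22.4 and 29.3 in two-cell M. In both fractions the mean was lowest in MII and highest in zygote M.

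A locus of ribosomal RNA, CT010467.1, was set beside Lars2 after the values had been seen. The ratio was much steadier than Lars2 in GV and zygote M polysomes and no steadier than Lars2 in two-cell libraries. In GV polysomes Lars2 varied 7.42-fold between replicates and CT010467.1 7.60-fold, while Lars2 per 1000 FPKM of CT010467.1 stayed between 1.80 and 1.88. The ratio lay between 2.35 and 2.68 in MII polysomes and between 2.53 and 2.97 in zygotes. It lay between 15.1 and 16.6 in zygote M, where Lars2 varied 3-fold, between 4.57 and 6.30 in two-cell, where Lars2 varied 1.35-fold and the ratio 1.38-fold, and between 1.42 and 2.31 in two-cell M. Within each group of 3 libraries the ratio varied at most 1.62-fold in either fraction, while over the stages it ran from 1.42 to 16.6 in polysomes. CT010467.1 was called in the same direction as Lars2 in polysomes in MII against GV (-3.23 ± 0.46, limma adjusted p = 1.78e-05) and in the zygote on entry into M-phase (2.11 ± 0.46, adjusted p = 0.00313). So it was in GV against two-cell (-2.0 ± 0.46), in MII against zygote M (-4.13 ± 0.46) and in MII against two-cell M (-6.81 ± 0.46). Calls were not shared in every comparison. On entry of two-cell embryos into M-phase polysomal CT010467.1 rose by 1.58 ± 0.46 (adjusted p = 0.00804), while Lars2 had a difference of 0.10 ± 0.56 (adjusted p = 0.909). In NP libraries of zygotes in M-phase Lars2 was called higher by 2.18 ± 0.56, and the difference of CT010467.1 was -0.08 ± 0.46 (adjusted p = 0.958). Of 2 further loci known to collect ribosomal RNA reads, Gm26917 and Gm42418, neither was called in MII against GV polysomes (-2.48 ± 1.08, adjusted p = 0.207, and -2.20 ± 1.15, adjusted p = 0.324). Gm26917 was called higher on entry into M-phase in zygote polysomes (4.22 ± 1.08, adjusted p = 0.0147) and also in two-cell polysomes (4.59 ± 1.08, adjusted p = 0.00153), and Gm42418 in neither. In polysomes Gm42418 was called in the direction of Lars2 in GV against two-cell (-5.84 ± 1.15) and MII against zygote M (-3.94 ± 1.15), and Gm26917 in neither. Both were called so in MII against two-cell M (-8.94 ± 1.15 for Gm42418 and -10.03 ± 1.08 for Gm26917). The part of ribosomal RNA reads in the Lars2 values was not tested.

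**Figure D5:**
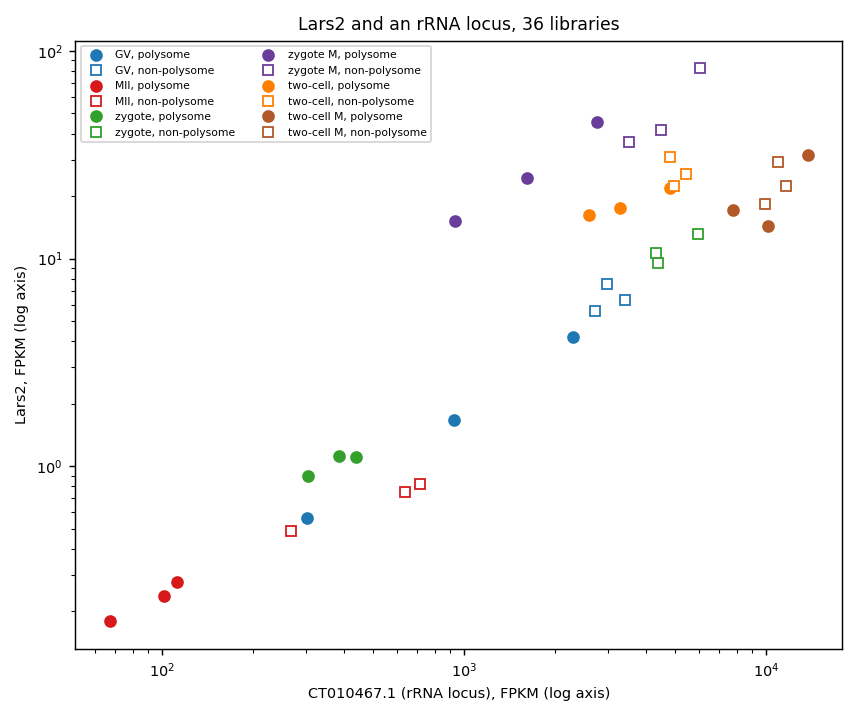
Lars2 against the ribosomal RNA locus CT010467.1 in all 36 libraries, both in FPKM on log axes, with colour for stage and filled circles for polysome, open squares for NP libraries. The 3 GV and 3 zygote M polysome libraries line up along a ratio each, other groups form tighter clusters, and the zygote M group lies above the others at a given level of the locus.

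The NP fraction served to ask whether changes were particular to polysomes. Over the 7 stage comparisons 46 of 175 gene and comparison pairs were called in NP libraries, where 26.8% of the pairs of all tested genes were, and 37 of 175 in polysomes, where 19.4% were. In MII against GV 10 aaRS genes were called in the NP fraction, where 16.6% of all tested genes were, and 8 of them were higher in MII, Qars, Sars, Aars, Mars, Pars2, Sars2, Vars2 and Aars2. NP Qars had 4.63, 5.00 and 6.99 FPKM in GV and 44.8, 45.8 and 39.0 in MII, a rise of 2.98 ± 0.85 (limma adjusted p = 0.0155). Tars and Lars2 were lower. Aars2 was listed at 0.01 in all GV NP libraries.

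The other NP comparisons gave 3 calls in zygote M against zygote (10.4% of all tested genes), which were Cars and Iars lower and Lars2 higher. For the two-cell embryo on entry into M-phase they gave 5 (36.1%), with Qars, Sars, Farsb and Fars2 lower and Farsa higher. Farsa had 11.3, 5.40 and 0.0179 FPKM in two-cell NP libraries and 10.8, 12.6 and 8.91 in two-cell M ones, so a single two-cell library was low and the groups overlapped. They gave 3 in GV against zygote (13.9%), 4 in GV against two-cell (29.7%), 6 in MII against zygote M (19.8%) and 15 in MII against two-cell M (61.3%).

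A change that differed between polysomes and the NP fraction was found for 2 of 175 pairs, where 1.74% of all pairs of a tested gene and a comparison had one. These were Wars in GV against two-cell and Qars in MII against two-cell M. In two-cell M polysomes Qars had 10.8, 0.356 and 11.9 FPKM and in the NP fraction of the same gradients 0.0796, 0.110 and 0.0454. MII minus two-cell M, Qars was 4.31 in polysomes and 9.19 in the NP fraction on the log2 scale, a difference of -4.89 (limma adjusted p = 0.0187), which the gradient as a block took to an adjusted p of 0.0558. It was also lost without MII polysome replicate B or two-cell M polysome replicate A or C (adjusted p from 0.0523 to 0.0645). That of Wars was -6.36 (adjusted p = 0.02). It was lost without GV replicate B of either fraction, with adjusted p of 0.0638 and 0.0501. With 1 FPKM added neither difference passed (adjusted p = 0.267 for Wars and 0.232 for Qars), nor under quantile normalization (0.146 and 0.537), and that of Qars was also lost with 0.1 added (0.064) and with the libraries compared fitted alone (0.234).

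Direct comparison of both fractions within a stage gave 8 calls in 150 pairs. In GV 2 genes were called, where 4.96% of all tested genes were, Lars2 lower in polysomes by 2.02 ± 0.56 (limma adjusted p = 0.0337) and Aars2, which was at 0.01 in all NP libraries (adjusted p = 0.0237, and 0.0545 with the gradient as a block). In MII 0 were called (0.753% of all tested genes; 2 had an unadjusted limma p under 0.05) and in zygotes 1 (1.38%), Lars2, lower in polysomes by 3.41 ± 0.56 (adjusted p = 0.000402). The ribosomal RNA locus CT010467.1 was also called lower in polysomes in GV (-1.81 ± 0.46, limma adjusted p = 0.0186) and in zygotes (-3.70 ± 0.46, adjusted p = 7.6e-06). It was lower in MII as well (-2.44 ± 0.46, adjusted p = 0.00491), where Lars2 was not called. In zygote M 0 aaRS genes were called (1.92%), and 3 had an unadjusted p under 0.05. In two-cell 2 were called (16.1%), Wars by 6.95 ± 1.07 (adjusted p = 6.83e-05) and Kars by 3.13 ± 1.05 (adjusted p = 0.0407, and 0.0608 with the block), both higher in polysomes. In two-cell M 3 were called (14.8%), all higher in polysomes, Qars by 5.60 ± 0.85 (adjusted p = 2.9e-05), Aars by 6.19 ± 1.70 (adjusted p = 0.013) and Wars by 3.58 ± 1.07 (adjusted p = 0.0219). In MII and in zygote M, where 0 were called, medians over the 25 genes were 0.34 and -0.17, against -0.04 and 0.31 over all tested genes. The GV call of Lars2 was lost without polysome replicate A or C or NP replicate A or B, with an adjusted p of up to 0.223, and that of Kars without polysome replicate A or C or NP replicate A or C, up to 0.221. That of Aars2 was lost in 5 of 6 such fits, with an adjusted p of up to 0.0873. That of Aars was lost without NP replicate A or C (up to 0.0667) and that of Wars in two-cell M without polysome replicate B or C or NP replicate A (up to 0.19). Aars was listed at 0.01 FPKM in 2 of the 36 libraries. Its two-cell M difference ran from 5.11 to 8.35 on leaving out a library and went down to 1.78 under other settings. When the 6 libraries of a stage were fitted alone, 5 of the 8 calls were lost, those of Lars2 in GV (limma adjusted p = 0.169), of Kars in two-cell (0.284) and of Qars, Aars and Wars in two-cell M (0.225, 0.279 and 0.519). Wars in two-cell M was lost with 1 FPKM added (0.258) and under quantile normalization (0.256) as well. Aars2 in GV was lost with 1 FPKM added (0.0985). Kars in two-cell was lost with 1 FPKM added (0.0856), under quantile normalization (0.064) and with no minimum (0.0687). Aars shares 1326 exonic bases with Exosc6.

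Genes around the synthetases were described from lists by role. In vertebrates 8 cytosolic aaRSs sit in a multisynthetase complex on 3 scaffold proteins. The 8 genes (Dars, Eprs, Iars, Kars, Lars, Mars, Qars and Rars) summed to 11.9 to 23.2 FPKM in GV polysomes and to 56.5 to 103 FPKM in MII, most of it Qars. Without Qars the other 7 genes summed to 2.38 to 7.78 FPKM in GV and 7.20 to 12 in MII, and the groups overlapped. The median difference of the 7 tested was 1.64 in MII against GV and -2.24 for the M-phase of the zygote, where Rars was called. Aimp2, a scaffold gene, had 2.89 to 6.02 FPKM in GV and 33.5 to 41.7 in MII polysomes, with a difference of 3.13 ± 0.97 that missed the threshold (limma adjusted p = 0.0517). Its zygote M values, 4.64 to 9.94 FPKM, lay below those of zygotes, 17.6 to 21.4, but the difference of -1.60 ± 0.97 was not called (limma adjusted p = 0.47). Eef1a1, which codes for the factor that carries charged tRNA to the ribosome, was lower in GV than in zygotes, with 1.55 to 3.72 against 17 to 21.2 FPKM (-2.81 ± 0.79, adjusted p = 0.0328).

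The enzymes fall into 2 structural classes, with Eprs in both. In MII against two-cell M 5 of 11 tested class I genes and 11 of 15 class II genes were called higher in MII, where 45.2% of all tested genes were, and Lars2, a class I gene, was lower. The difference between the classes was not tested. In two-cell M against two-cell 2 class I and 3 class II genes were called, all lower, where 36.3% of all tested genes were called in either direction. Of 7 tested genes of the amino acid response, 1 was called when two-cell embryos entered M-phase, where 36.3% of all tested genes were. It was Chac1, which degrades glutathione and was at 0.01 in all two-cell M libraries. The median of the 7 genes was -1.42, against -1.17 over all tested genes. Sesn2 and Atf4 had differences above 0 (2.55 ± 1.65 and 0.87 ± 0.86) and were not called. Of 5 tested genes for editing and recycling of charged tRNA, Prorsd1 rose in the M-phase of the two-cell embryo (4.97 ± 1.98, limma adjusted p = 0.0497), from 0.01, 0.01 and 0.042 FPKM to 0.0885, 0.285 and 5.13, so its size depends on 2 libraries at 0.01. Mtfmt, which formylates the mitochondrial initiator tRNA, was lower there by 3.67 ± 1.26 (adjusted p = 0.0243). Eefsec, the elongation factor for selenocysteine, was lower by 3.49 ± 0.72 (adjusted p = 0.000435).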

How the data were processed

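The authors trimmed reads from SMART-seq libraries with Trim Galore 0.4.1, mapped them to GRCm38 with STAR 2.5.3a and deposited FPKM values for 23125 genes in 36 libraries. Priming on the poly(A) tail can make a value follow tail length as well as mRNA amount, and no strand was kept. Every value is at least 0.01, which was taken as the authors' offset for 0. The study's methods name RefSeq genes, while the positions in the table match GENCODE for 33 of the 37 genes. Of 38 samples, 2 from zygotes had no column that could be assigned and were not used.

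The deposited FPKM were log2-transformed without an offset, and 12 group means were estimated in limma 3.58.1 (R 4.3.3, lmFit and eBayes with trend). Groups were taken from the sample titles, with 3 libraries each. Benjamini-Hochberg adjustment ran over 7967 genes at or above a geometric mean of 0.1 FPKM, and tests are two-sided. The study calls the replicates biological. Nothing says that they came from separate animals, so p-values measure the spread between these pools. Polysome and NP libraries of the same stage and letter come from the same gradient and were paired in an alternative fit, and their residuals had a median correlation of 0.0831. Letters shared between stages had a median of 0.0159 and do not pair samples.

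Genes given in every library were the 3 most abundant of each compartment and, in each polysome comparison, the called genes that rose or fell most (up to 2 each way). Genes called the same way in several M-phase comparisons, or between fractions in at least 3 stages, would have been added, and there were 0. The genes, the lists and the tests were chosen with earlier results of these data known. Alternatives were an offset of 0.1 or 1 FPKM, dropping the minimum or raising it to an arithmetic mean of 1 FPKM, quantile normalization, the libraries compared alone, blocks for the replicate letter or gradient, each replicate left out, and, added after seeing the data, no two-cell M libraries. Sequences were read from GENCODE transcripts and RefSeq promoters with Python 3.11.15 and pandas 2.3.3, and figures were drawn with matplotlib 3.10.9. Some single-gene values and sequences are not reported here.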

Additional observations from a re-analysis of the deposited data

Results flagged for a closer look

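Several changes differed between divisions or between fractions by the test of the difference itself (a limma contrast, adjusted over all tested genes). Each value is the log2 change in the first comparison minus that in the second.

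Between meiotic and mitotic M-phase entries in polysomes, Lars2 differed by -7.42 from MII against GV to zygote M against zygote, as it fell in MII and rose in zygote M. Set against two-cell M against two-cell, the change of MII against GV differed by -5.63 for Hars, -2.90 for Lars2, 3.44 for Qars, 7.12 for Sars and 6.18 for Vars2. The differences of Lars2, Sars and Vars2 passed on leaving out each of the 12 libraries, with adjusted p of up to 0.0397, 0.00858 and 0.0311. With the libraries compared fitted alone the differences of Lars2 and Vars2 no longer passed (adjusted p = 0.0529 and 0.0525), nor did those of Hars and Qars (0.092 and 0.129). With 1 FPKM added that of Lars2 was -1.28 (adjusted p = 0.0794). That of Hars was lost in 8 of the 12 fits without a library and that of Qars in 7, where its value went down to 1.77 without two-cell M replicate B.

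Between both mitotic M-phases, the change of zygote M against zygote minus that of two-cell M against two-cell was 3.13 for Fars2, -5.99 for Hars, -5.93 for Iars, 4.52 for Lars2 and -8.92 for Rars. Lars2 and Rars passed in all 12 fits without a library, with adjusted p of up to 0.000926 and 0.0196. With 1 FPKM added the difference of Rars was -1.08 and no longer passed (adjusted p = 0.22). Iars was lost in 10 of the 12, Hars in 7 and Fars2 in 6. Lars2 appears in each of these contrasts, and the values of a ribosomal RNA locus beside it are given above.

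Between fractions, the change of Wars in GV against two-cell differed by -6.36 and that of Qars in MII against two-cell M by -4.89. Neither passed with 1 FPKM added (adjusted p = 0.267 and 0.232) or under quantile normalization (0.146 and 0.537), and Qars did not pass with 0.1 added (0.064) or with the libraries compared alone (0.234). In both cases the NP libraries of the later stage were low, with 0.0147 ± 0.00554 FPKM for Wars in two-cell and 0.0784 ± 0.0323 for Qars in two-cell M (SD, n = 3).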

How the results depend on the processing

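Counts of called aaRS genes changed with several settings. In MII against GV (1 call) there were 4 with 0.1 added, 9 with 1 added, 4 with quantile normalization, 9 with the libraries compared alone and 3 without two-cell M. In zygote M against zygote (2) there were 4 with 0.1 added, 1 with a mean of at least 1 FPKM, 7 with quantile normalization, 13 alone, 1 with the replicate block and 4 without two-cell M. In two-cell M against two-cell (5) there were 2 with 1 added, 2 with no minimum, 3 with a mean of at least 1 and 1 alone. There were also 4 with 0.1 added, of which 2 were among the 5, and 6 with quantile normalization, of which only Sars was. In GV against zygote (0) there were 2 with 1 added, 2 with quantile normalization and 5 alone, and in GV against two-cell (5) 3 with a mean of at least 1. In MII against zygote M (7) there were 11 with 0.1 or 1 added, 3 with a mean of at least 1 and 17 alone, and in MII against two-cell M (17) 10 with 1 added and 9 with a mean of at least 1 or quantile normalization. With a mean of at least 1, 9 genes had a stage effect (17) and 26 NP pairs were called (46). That minimum left 12 of the 25 genes in the test, and in these comparisons every call of a gene still tested was kept. Alone, 5 pairs were called between fractions, 3 of the 8 and 2 others. The interaction count (2) was 1 with 0.1 added or the gradient block (Wars), 1 with 1 added (neither of the 2), 0 with quantile normalization and 6 alone (1 of the 2). For stage effects, NP pairs, pairs between fractions and interactions, shares of all tested genes under these settings are not given here. The share of all tested genes called moved too. In MII against GV it was 6.11%, and 13.4% with 0.1 added, 20.1% with 1 added, 19.4% with quantile normalization and 27.1% alone. In zygote M against zygote it was 5.75%, and 8.84%, 11.3%, 14.6% and 33.1% in the same order. For two-cell M against two-cell it was 36.3%, and 35.8%, 26.9%, 37.3% and 20.9%. GV against zygote had 5.61%, and 11.1%, 16.4%, 17.7% and 31.0%. GV against two-cell had 16.7%, and 24.5%, 22.7%, 25.8% and 20.6%. MII against zygote M had 12.4%, and 20.6%, 22.3%, 26.1% and 40.6%. MII against two-cell M had 53.0%, and 54.8%, 41.8%, 45.7% and 49.0%. Leaving out 1 replicate gave 1 to 1, 1 to 2, 2 to 6, 0 to 0, 2 to 4, 3 to 4 and 12 to 17 calls in the 7 polysome comparisons in this order, 14 to 18 stage effects, 6 to 9 pairs between fractions, 39 to 51 NP pairs and 1 to 6 interactions. Under quantile normalization Fars2 turned to 0.91 in two-cell M against two-cell and to -0.96 in MII against two-cell M, and Dars to -1.33 in the latter. Blocking on the replicate letter, which pairs nothing here, kept 43 of 48 single-gene calls and lost 5, and the gradient block kept 7 of 10 and lost 3. The causes of the other shifts were not tested. Lowly expressed genes are limited by depth, since 1 fragment is worth about as much as the 0.01 of the table, and fits with 1 FPKM added lost 26 of 58 single-gene calls.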
